A study of Homo sapiens with 6 samples.

Results

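The 38 genes described here encode the steps of glycolysis from glucose uptake to lactate export, the kinases that steer that flux, and a set of transcripts known to respond to low oxygen. They were chosen by symbol with earlier results of this array known, and every row carrying 1 of the 38 symbols was taken, which gave 99 of the 34558 array rows and 38 of the 19184 symbols measured. KYSE30 is an established cell line from a human oesophageal squamous cell carcinoma. Samples 1, 2 and 3 received a negative control siRNA and samples 4, 5 and 6 an siRNA directed at MTA2, a subunit of the NuRD histone deacetylase complex. Both siRNAs were given with Lipofectamine 2000 at 20 nmol/ml, as the labels print it, for 48 h, so all 6 samples were transfected and no untreated sample was included. Total RNA was hybridised to NimbleGen one-colour arrays. The label field gives Cy3 for samples 1, 3 and 5 and Cy5 for samples 2, 4 and 6. It is not stated whether the samples of a group were separate cultures, so the spread between them may be technical. All came from 1 line at 1 time point, and no oxygen tension is given in the labels.

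Glycolysis turns glucose into pyruvate in the cytosol, and many carcinoma cells reduce much of that pyruvate to lactate even when oxygen is present. Most steps are served by several isozymes, each with its own gene, tissue preference and regulation. Under low oxygen the prolyl hydroxylases EGLN1 and EGLN3 no longer mark HIF1A protein for destruction, and HIF1A then binds a short core motif near many glycolytic genes and near genes for pH control, blood vessel growth and mitophagy. HIF1A is regulated mainly through the stability of its protein, which an RNA array does not measure. MTA1, a relative of MTA2, has been linked to the stability of HIF1A protein through deacetylation.

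The strands of the 2 siRNAs are shown because they define the groups. Capitals mark bases 2 to 8 of each antisense strand, the seed that directs pairing with transcripts, and the strands are printed as the labels give them, with their overhangs.
Control siRNA, sense: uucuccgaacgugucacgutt
Control siRNA, antisense: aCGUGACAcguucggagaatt
MTA2 siRNA, sense: ggugggagauuacgucuautt
MTA2 siRNA, antisense: aUAGACGUaaucucccacctt

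The targeted transcript did not read lower after the siRNA directed at it. The single MTA2 row read 12.92, 13.13 and 13.004 in the controls and 13.12, 13.18 and 13.52 in samples 4, 5 and 6 (log2 intensity, every value here being on that scale). The difference between the groups was 0.26 (95% interval -0.16 to 0.67, limma adjusted p = 0.942). The directions below therefore refer to the samples as labelled. Every difference is the mean of samples 4 to 6 minus the mean of samples 1 to 3 on the log2 scale, where 1 unit is a 2-fold ratio, and levels are mean ± SD with n = 3 per group.

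None of the 38 genes passed the test between the groups, and neither did any other gene on the array. At an adjusted p of 0.05 the count was 0 of 38, where 0% of all genes were called, both without a covariate and with label dye as a block (lowest limma adjusted p among the 38 = 0.942 and 0.872). Of the 38, 16 read higher and 22 lower, with a median difference of -0.051 against 0.029 over all genes. At an unadjusted limma p under 0.05 there were 3 (7.89%), all lower, against 3.76% of all genes. The groups did not overlap for 3 (7.89%), all lower, against 9.48% of all genes (5.47% higher, 4.01% lower). The differences ran from -0.69 to 0.37, so no gene of the set read 2-fold apart. For 29 of 38 the 95% interval stayed inside 2-fold both ways, and for the other 9 it reached beyond. Since array signal is relative to total RNA, fewer cells of a kind and less RNA per cell cannot be told apart.

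**Figure D1:**
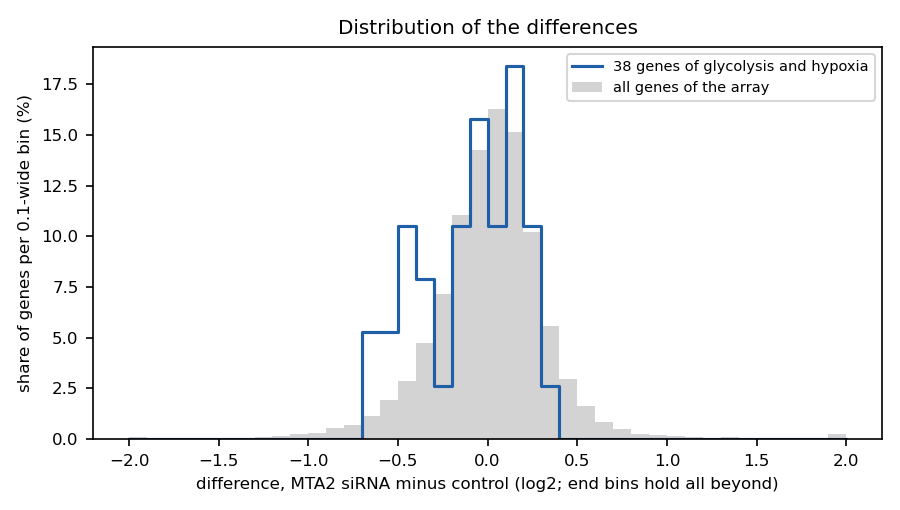
Share of genes in bins 0.1 wide of the log2 difference between samples labelled MTA2 siRNA and controls, for all 19184 genes (grey bars) and for the 38 genes of glycolysis and hypoxia (blue line). The 38 lie between -0.69 and 0.37, inside the range of the whole array, with 22 of them below 0.

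The members differed by label dye about as often as other genes did. At an unadjusted p under 0.05 for Cy5 against Cy3 there were 7 of 38 (18.4%), against 18% of all genes. None passed the adjusted threshold for dye, which 0.349% of all genes did. For 22 of 38 the dye difference was larger in size than the siRNA difference in the same fit. The same count over all genes is not given here, so 22 shows nothing particular to the set. Over all genes the median size was 0.25 for the dye difference and 0.17 for the siRNA difference without a covariate. Over the 38 genes these medians were 0.21 and 0.18. With dye as a block the members at an unadjusted p under 0.05 were again 3, where 4.96% of all genes passed, but 0 of them were shared with the fit without dye. Within Cy3 and within Cy5, 20 of the 38 differences had the same sign and 18 had opposite signs. Opposite signs were found for 8671 of the 19184 genes of the array. Within a dye 1 of the groups has a single sample, so no p is given for those values.

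The glucose transporters both read lower in the samples labelled MTA2 siRNA, without passing the test. SLC2A1 encodes GLUT1, the basal glucose transporter of most proliferating cells. It read 10.995, 11.35 and 10.69 in control samples 1, 2 and 3 and 10.30, 10.81 and 10.02 in samples 4, 5 and 6. Sample 5 lay above control sample 3, so the groups overlapped. The difference was -0.64 (SE 0.27, interval -1.27 to -0.01, limma adjusted p = 0.942), a level 0.642 times that of the controls. The difference lay almost entirely in 1 dye, at -0.036 within Cy3 and -1.19 within Cy5.

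SLC2A3 encodes GLUT3, a transporter of high glucose affinity known best from neurons. Its levels were 9.11, 10.19 and 9.12 in the controls and 9.30, 8.10 and 9.45 in samples 4, 5 and 6. In both groups the Cy5 samples read above the Cy3 samples. The dye difference of 1.17 came closest of the 38 to the threshold (limma adjusted p = 0.0516). The siRNA difference was -0.52 (SE 0.44) without a covariate and -0.91 with dye as a block. It was -1.01 within Cy3 and -0.81 within Cy5. The blocked value had the smallest unadjusted limma p of the 38 (0.000754) but not a passing adjusted one (0.872). Without control sample 2 the difference was -0.16, and without sample 5 it was -0.097.

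**Figure D2:**
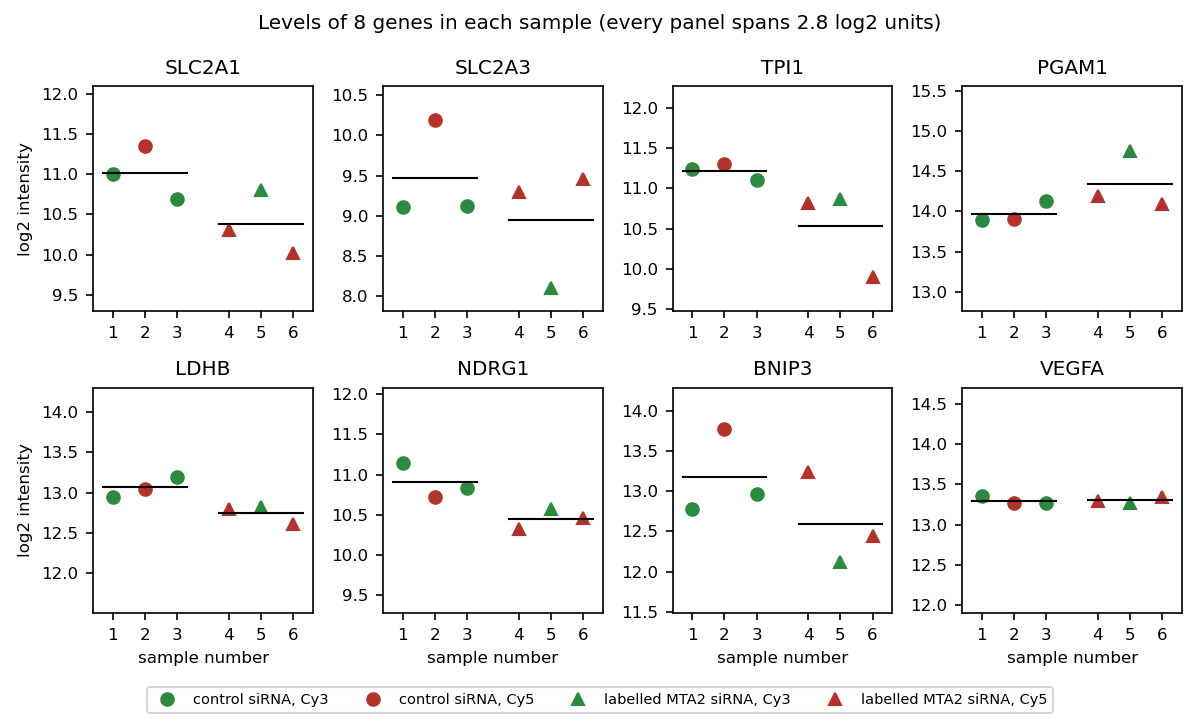
Log2 intensity of 8 genes in each of the 6 samples, controls as circles and samples labelled MTA2 siRNA as triangles, Cy3 green and Cy5 red, with a black line at each group mean; every panel spans the same range. The groups are separate for TPI1, LDHB and NDRG1, for SLC2A3 and BNIP3 the Cy5 samples of each group sit above its Cy3 samples, and VEGFA spans the narrowest range.

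The hexokinases, which trap glucose by phosphorylation, differed between the groups by less than samples of a group differed from each other. HK1, the housekeeping form, read 10.57, 10.76 and 10.48 in the controls and 10.54, 10.66 and 10.61 in samples 4, 5 and 6. Its difference was -0.0014 (SE 0.15, interval -0.37 to 0.36), while its 5 rows ran from -0.32 to 0.20. HK2, the inducible form prominent in carcinoma, read 9.60 ± 0.53 and 9.72 ± 0.29. The HK2 difference of 0.13 (interval -0.57 to 0.83) was -0.34 within Cy3 and 0.75 within Cy5. GPI, the isomerase that makes fructose 6-phosphate, differed by -0.16 (interval -0.70 to 0.38).

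Phosphofructokinase commits sugar to glycolysis, and its subunits are encoded by PFKL, PFKM and PFKP, named for liver, muscle and platelet. PFKP read 11.33, 11.74 and 10.88 in the controls and 10.77, 11.09 and 10.82 in samples 4, 5 and 6. Its difference was -0.42 (SE 0.24, interval -0.999 to 0.15), with both rows lower, at -0.51 and -0.33. As for SLC2A1, it was near 0 within Cy3 (-0.017) and larger within Cy5 (-0.94). PFKM differed by -0.028 (interval -0.37 to 0.32), and its 4 rows spanned only -0.087 to 0.034. The PFKL row lay at the top of the scale: in samples 3, 4 and 6 it read 15.99, 15.99 and 15.98, within 0.02 of the highest value in those columns. Its difference of 0.22 is therefore not exact.

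Aldolase splits the 6-carbon sugar, and for both of its genes in the set the groups overlapped. ALDOA, the ubiquitous form, read 11.21, 11.34 and 11.30 in the controls and 11.11, 11.34 and 11.23 in samples 4, 5 and 6. Its difference was -0.055 (SE 0.15, interval -0.41 to 0.30). Its 5 rows disagreed in sign, from -0.43 to 0.32. ALDOC, the form of brain, differed by -0.083. It read lower in the Cy5 samples of both groups, with a dye difference of -0.73 (limma adjusted p = 0.139).

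TPI1 had the lowest difference of the set. It encodes triose phosphate isomerase, which lets both products of the split sugar proceed, and no isozyme gene stands in for it. It read 11.24, 11.30 and 11.11 in the controls and 10.82, 10.86 and 9.90 in samples 4, 5 and 6. All 3 samples labelled MTA2 siRNA lay below all 3 controls, and sample 6 lay well below the other two. The difference was -0.69 (SE 0.28, interval -1.35 to -0.034, limma adjusted p = 0.942). The two-sided p of an exact permutation test was 0.10, the smallest that 3 against 3 allows. Groups without overlap always give that value, so it adds nothing to the separation. Without sample 6 the TPI1 difference was -0.38. The 3 TPI1 rows were not alike. The rows of NM_000365 and NM_001258026 differed by -1.09 and -0.98, while the brightest row, NM_001159287, differed by -0.0041.

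PGK1, which makes the first ATP of the pathway, varied widely within both groups. It read 11.15, 11.52 and 9.92 in the controls and 11.19, 10.97 and 10.12 in the others, a difference of -0.10 with an interval of -1.19 to 0.99. Samples 3 and 6 were the low ones, 1 from each group and each dye. PGAM1, the phosphoglycerate mutase of most tissues, had the highest difference of the set at 0.37 (SE 0.22). It read 13.89, 13.90 and 14.12 in the controls and 14.19, 14.75 and 14.09 in samples 4, 5 and 6. Sample 6 lay just under control sample 3, so the groups overlapped. The PGAM1 difference was 0.49 with dye as a block (limma adjusted p = 0.872) and 0.17 without sample 5. PGAM2, the muscle form, differed by 0.19, or by 0.0063 with dye as a block.

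The enolases gave values in both directions. ENO1, the form of most tissues, read 12.99, 13.24 and 13.12 in the controls and 13.01, 13.31 and 12.80 in samples 4, 5 and 6. Its difference was -0.079 (SE 0.19, interval -0.52 to 0.36), with its rows at 0.22 and -0.38. The groups overlapped, sample 5 being the highest of all 6 and sample 6 the lowest. ENO2, the neuronal form, read 11.002, 10.91 and 10.62 in the controls and 10.99, 10.34 and 9.87 in samples 4, 5 and 6. Sample 4 was as high as the controls and sample 6 was the lowest. The ENO2 difference of -0.44 (interval -1.14 to 0.26) became -0.18 without sample 6 and -0.74 without sample 4. ENO3, the muscle form, differed by 0.26 (interval -0.15 to 0.66), with all 3 rows higher.

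LDHB was the only lactate dehydrogenase gene of the 3 whose groups did not overlap. LDHA and LDHB encode the subunits that mix into tetramers, LDHA favouring lactate formation and LDHB being common in oxidative tissue. LDHB read 12.95, 13.04 and 13.20 in the controls and 12.79, 12.82 and 12.61 in samples 4, 5 and 6, a narrow spread on both sides. The difference was -0.32 (SE 0.16, interval -0.69 to 0.047, limma adjusted p = 0.942), with an exact permutation p = 0.10, two-sided, as for any gene without overlap. Both LDHB rows were lower (-0.29 and -0.36), and so were the values within Cy3 (-0.25) and within Cy5 (-0.34). With each sample left out the difference ran from -0.38 to -0.26.

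LDHA read 9.03, 8.91 and 9.02 in the controls and 9.23, 8.65 and 9.11 in samples 4, 5 and 6, which lay on both sides of the controls. Its difference was 0.015 (SE 0.19, interval -0.45 to 0.47), with 5 rows between -0.36 and 0.36. LDHC, the testis form, differed by 0.18, with both rows higher. The LDHC intensity was 11.73 ± 0.35 in the controls. Sets of 5 leukocyte, neuron, fibroblast, endothelium, testis, liver and skeletal muscle markers averaged 11.64, 11.56, 11.32, 10.93, 10.89, 10.43 and 9.82, the last 2 sets below the median gene of 10.47, and 10 squamous markers averaged 11.83. Features differ in brightness, so levels of different genes are not compared here. None of these 45 markers was called between the groups. For 2 of the 8 sets the means did not overlap between the groups, as was so for 9.48% of single genes of the array. With only 8 sets no conclusion is drawn from that count. The endothelium mean was 10.34 to 10.99 in the controls and 11.10 to 11.12 in the others, and the squamous mean was 11.84 to 11.95 in the controls and 11.76 to 11.81 in the others. Their part in any result was not tested.

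The lactate carriers gave values below control in the row means, with disagreement between rows. SLC16A3 encodes MCT4, the exporter of strongly glycolytic cells. It read 10.81, 10.55 and 11.17 in the controls and 10.41, 10.73 and 9.99 in samples 4, 5 and 6. Its difference was -0.47 (SE 0.25, interval -1.06 to 0.13), and -0.27 without sample 6. Of its 6 rows, NM_001042423 and NM_001206952 carried most of this, at -1.34 and -1.13, and the others lay between -0.23 and 0.065. SLC16A1, which encodes the broadly expressed carrier MCT1, read 9.06, 8.37 and 9.24 in the controls and 8.11, 9.13 and 9.12 in samples 4, 5 and 6. Its difference was -0.10 (SE 0.35, interval -0.93 to 0.73), with its rows at 0.42 and -0.63. Samples 2 and 4, both labelled Cy5, were the low ones.

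**Figure D3:**
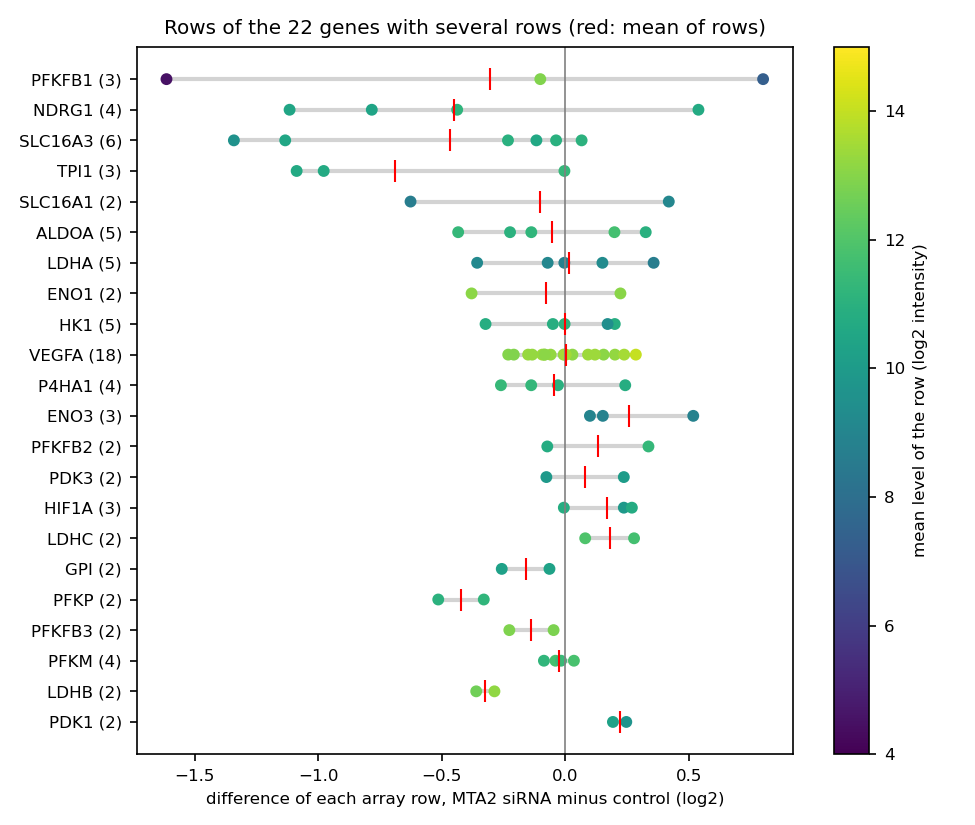
Log2 difference of each array row (points, coloured by the mean log2 intensity of the row) for the 22 genes with several rows, sorted by the spread between rows; the number of rows is in brackets and a red tick marks the mean. PFKFB1, NDRG1, SLC16A3, TPI1 and SLC16A1 span more than 1 log2 unit, while PDK1 and LDHB rows nearly coincide.

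Over single rows the picture was the same. Of the 99 rows, 40 read higher and 59 lower, and 0 passed an adjusted p of 0.05, as 0% of all rows did (lowest limma adjusted p = 0.967). The groups did not overlap in 8 rows (8.08%), 2 higher and 6 lower, against 8.83% of all array rows. In 10 of the 22 genes with several rows, the rows had both signs and lay more than 0.5 apart.

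PFKFB enzymes make or remove fructose 2,6-bisphosphate, the strongest activator of phosphofructokinase. PFKFB3, the form with high kinase activity, differed by -0.14 (interval -0.65 to 0.38) and PFKFB4, a hypoxia-inducible form, by 0.11 (interval -0.36 to 0.58). PFKFB2, known from heart, differed by 0.13. Its row NM_001018053 read 11.16, 11.12 and 11.15 in the controls and 11.27, 11.54 and 11.62 in samples 4, 5 and 6, a difference of 0.34 without overlap. PFKFB1, the liver and muscle form, read 8.25, 8.15 and 8.79 in the controls and 6.80, 9.01 and 8.46 in samples 4, 5 and 6. Its difference was -0.31 (SE 0.54, interval -1.58 to 0.97), the mean of rows that lay far apart. Its bright row differed by -0.10. The row NM_001271805 was dim, at percentile 3.42 of all array rows by mean level. It read 7.07, 7.23 and 6.41 in the controls and 7.71, 7.86 and 7.53 in samples 4, 5 and 6. The difference of that row was 0.80, without overlap. A still dimmer row, NM_001271804, read -0.14 in sample 4 against 4.46 to 6.63 in the other 5 samples. Without sample 4 the gene differed by 0.34. Rows below 5 were more frequent in samples 1 and 4, with 375 and 271 of the 34558, than in the other samples, with 29 to 87, and no gene of the set lay that low in any sample once its rows were averaged.

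PDK1 and PDK3 phosphorylate pyruvate dehydrogenase and so hold pyruvate back from the mitochondrion. PDK1, a known HIF1A target, read 9.90 ± 0.28 and 10.12 ± 0.43, a difference of 0.22 (interval -0.40 to 0.84). The PDK1 value followed dye, with 0.58 for Cy5 against Cy3, and the siRNA difference was 0.027 with dye as a block. PDK3 differed by 0.08 (interval -0.39 to 0.55).

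For the oxygen-sensing genes the groups overlapped at the RNA level. HIF1A, the oxygen-regulated transcription factor subunit, read 10.23, 10.46 and 10.48 in the controls and 10.92, 10.26 and 10.49 in samples 4, 5 and 6. Only sample 4 stood above the rest. The difference was 0.17 (interval -0.33 to 0.66), and without sample 4 it was -0.017. EGLN1, the main prolyl hydroxylase acting on HIF1A in normal oxygen, differed by -0.38, a value that rested on sample 6, which read 8.82 against 9.72 to 10.56 in the other 5. Without it the EGLN1 difference was 0.061. EGLN3, a prolyl hydroxylase that HIF itself induces, differed by 0.008 (interval -0.55 to 0.57).

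Among the other hypoxia-responsive genes, NDRG1 was the one whose groups did not overlap. NDRG1 is induced by hypoxia, by iron loss and during epithelial differentiation. It read 11.15, 10.73 and 10.84 in the controls and 10.33, 10.58 and 10.46 in samples 4, 5 and 6. The difference was -0.45 (SE 0.18, interval -0.87 to -0.032, limma adjusted p = 0.942), with an exact two-sided permutation p of 0.10, as for any gene without overlap. It was -0.41 within Cy3 and -0.33 within Cy5, and from -0.54 to -0.33 with each sample left out. Its 4 rows did not share a direction: NM_001258432, NM_006096 and NM_001258433 differed by -1.12, -0.78 and -0.44, and NM_001135242 by 0.54.

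BNIP3 encodes a mitophagy receptor of the outer mitochondrial membrane. It read 12.78, 13.77 and 12.96 in the controls and 13.23, 12.12 and 12.44 in samples 4, 5 and 6. As for SLC2A3, the single Cy5 control was the highest of its group and the single Cy3 sample the lowest of the other. The BNIP3 difference was -0.58 (SE 0.37) without a covariate and -0.85 with dye as a block (limma adjusted p = 0.872). It was -0.75 within Cy3 and -0.94 within Cy5. Without control sample 2 it was -0.28 and without sample 5 it was -0.34.

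VEGFA, the growth factor that drives vessel sprouting, had the narrowest range of the set across the 6 samples. It was also the most densely covered, with 18 rows. Its row mean read 13.36, 13.27 and 13.26 in the controls and 13.29, 13.27 and 13.34 in samples 4, 5 and 6. The difference was 0.0034 (SE 0.14, interval -0.33 to 0.34). Single VEGFA rows ran from -0.23 to 0.28, with 8 higher and 10 lower. CA9, the membrane carbonic anhydrase that serves as a common marker of hypoxic tumour cells, read 11.64, 12.49 and 12.46 in the controls and 12.12, 12.01 and 11.86 in the others. Its difference was -0.20 (interval -0.81 to 0.41). ADM, the vasodilator peptide adrenomedullin, differed by 0.19 (interval -0.24 to 0.62). ANKRD37, a small ankyrin-repeat protein induced by HIF1A, differed by 0.26 (interval -0.13 to 0.65). P4HA1, the collagen prolyl hydroxylase subunit, read 10.98, 11.20 and 11.23 in the controls and 11.23, 11.001 and 11.04 in samples 4, 5 and 6. Its difference was -0.047 (SE 0.16, interval -0.42 to 0.33), with 4 rows from -0.26 to 0.24. Both groups covered nearly the same range.

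**Figure D4:**
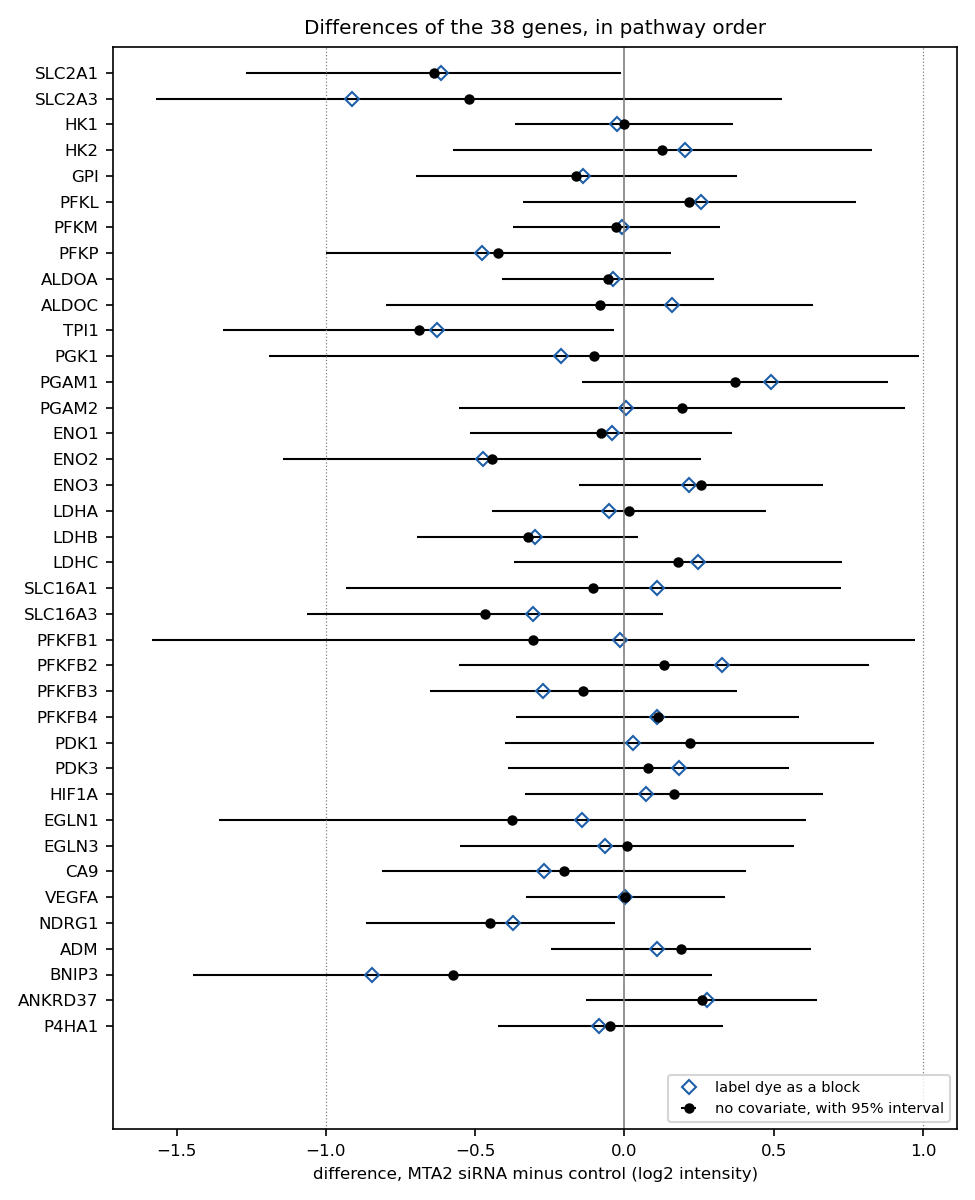
Log2 difference of each of the 38 genes in pathway order, from glucose uptake at the top to hypoxia-responsive genes at the bottom, without a covariate (black points with limma 95% intervals) and with label dye as a block (blue diamonds); dotted lines mark a 2-fold ratio. The intervals of SLC2A1, TPI1 and NDRG1 end just below 0, and those of the other 35 genes include it.

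By stretch of the pathway, the 22 genes from glucose uptake to lactate export had 15 lower and 7 higher and a median difference of -0.081, or -0.041 with dye as a block. The 16 regulators and hypoxia-responsive genes had 7 lower and 9 higher and a median of 0.0057. Neither stretch held a called gene. The median over the 38 genes, set against each gene's control mean, was -0.038, 0.057 and 0.061 in samples 1, 2 and 3 and -0.073, -0.054 and -0.0089 in samples 4, 5 and 6. Sample 1, a control, fell among the samples labelled MTA2 siRNA.

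Isozymes of 1 step were compared by the change in their within-sample log2 ratio, in which a constant difference in brightness between the features cancels. A signal limited at the top or bottom of the scale does not cancel. Of 11 pairs, none separated the groups, and the exact permutation p ranged from 0.20 to 1.00 (two-sided), where 0.10 is the smallest that 3 against 3 allows, so none could have passed 0.05. The widest gap was between PFKL and PFKP, at 0.64 (exact permutation p = 0.20), but PFKL was at the top of the scale in 3 samples. The ratio of PFKM to PFKP read 0.39 higher in the samples labelled MTA2 siRNA, as did those of ENO1 to ENO2 (0.36) and SLC16A1 to SLC16A3 (0.36). The LDHA to LDHB ratio was 0.34 higher in the samples labelled MTA2 siRNA (exact permutation p = 0.30), from centred values of -0.015, -0.23 and -0.27 in the controls and 0.35, -0.26 and 0.41 in samples 4, 5 and 6. The Cy3 sample 5 was as low as the controls. The ratio of SLC2A1 to SLC2A3 differed by -0.12 between groups and by -1.24 between dyes.

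**Figure D5:**
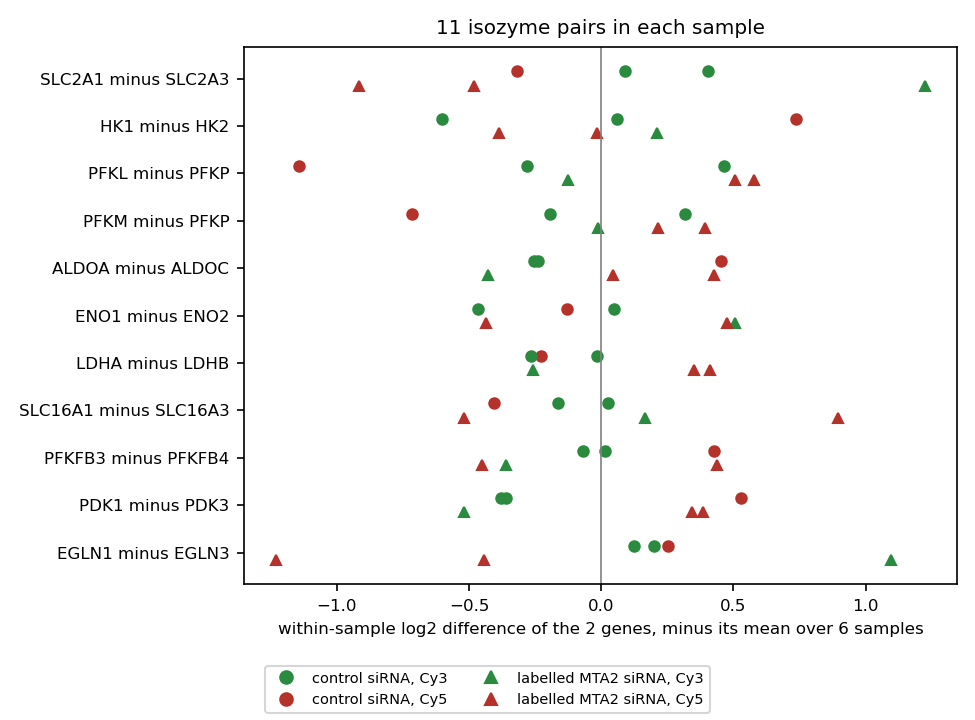
Within-sample log2 difference between the 2 genes of each of 11 isozyme pairs, centred on its mean over the 6 samples, controls as circles and samples labelled MTA2 siRNA as triangles, Cy3 green and Cy5 red. In every pair the groups overlap, and for SLC2A1 minus SLC2A3, ALDOA minus ALDOC and PDK1 minus PDK3 the samples fall apart by dye.

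Promoter sequence was read from RefSeq windows (GRCh38.p14, 250 bases before to 50 after a transcription start), which were matched for 33 of the 38 genes in 62 windows. The core that HIF1A is known to bind was searched as ACGTG and as GCGTG on both strands; CACGTG, an E-box read by MYC and USF factors, holds ACGTG on both strands. ACGTG occurred in 20 of 33 genes (60.6%) against 24.9% of all genes with a window, and in 24 of 62 windows (38.7%) against 21.4% of all windows. GCGTG occurred in 21 of 33 genes (63.6%) against 40.6%, and in 25 of 62 windows (40.3%) against 36.5%. A gene with more windows has more chances of a match. The set had 62 windows for 33 genes, where all genes had 35116 for 27305. Those 27305 genes are also more than the 19184 symbols measured on the array. The set was chosen as glycolytic and hypoxia-responsive genes, near many of which this core is known to lie. A higher share of the core was thus built into that choice and is no result of these samples. Genes of the set with ACGTG had 6 higher and 14 lower differences, and those without it 8 higher and 5 lower. For GCGTG the counts were 10 higher and 11 lower with it and 4 higher and 8 lower without it. Both splits only describe these samples. The windows below show TPI1 and LDHB, both with groups that did not overlap, beside LDHA and CA9, both well-known HIF1A targets whose groups overlapped. These genes were picked by hand, and NDRG1, whose groups did not overlap either, is not shown. For each gene the window with the most ACGTG matches is given, 5′ to 3′ on the gene's strand, and capitals mark ACGTG or GCGTG on either strand.
TPI1, chr12:6867855-6868154, plus strand: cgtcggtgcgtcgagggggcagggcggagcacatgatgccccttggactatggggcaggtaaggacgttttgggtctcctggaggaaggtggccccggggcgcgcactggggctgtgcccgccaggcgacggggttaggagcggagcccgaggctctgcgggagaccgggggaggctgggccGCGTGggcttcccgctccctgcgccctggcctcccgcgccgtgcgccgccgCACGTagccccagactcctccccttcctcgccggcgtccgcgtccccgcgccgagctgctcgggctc
LDHA, chr11:18394313-18394612, plus strand: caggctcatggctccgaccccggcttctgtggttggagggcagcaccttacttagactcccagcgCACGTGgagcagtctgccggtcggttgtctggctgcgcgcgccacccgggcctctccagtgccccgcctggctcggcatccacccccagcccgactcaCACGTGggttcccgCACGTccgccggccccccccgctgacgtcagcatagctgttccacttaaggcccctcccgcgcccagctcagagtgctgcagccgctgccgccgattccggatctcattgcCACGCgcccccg
LDHB, chr12:21657793-21658092, minus strand: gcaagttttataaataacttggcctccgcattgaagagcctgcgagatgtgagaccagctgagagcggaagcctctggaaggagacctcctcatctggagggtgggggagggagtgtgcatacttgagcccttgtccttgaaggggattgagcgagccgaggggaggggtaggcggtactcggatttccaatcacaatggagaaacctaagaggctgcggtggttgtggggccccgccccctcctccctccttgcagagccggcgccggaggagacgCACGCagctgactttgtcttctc
CA9, chr9:35673678-35673977, plus strand: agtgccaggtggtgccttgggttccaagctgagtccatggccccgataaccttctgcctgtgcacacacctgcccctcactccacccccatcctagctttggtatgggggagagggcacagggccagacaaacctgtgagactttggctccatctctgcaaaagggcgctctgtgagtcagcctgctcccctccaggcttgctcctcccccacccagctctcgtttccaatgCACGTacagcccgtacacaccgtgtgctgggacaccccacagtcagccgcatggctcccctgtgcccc

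The LDHA window held 5 matches to ACGTG over both strands, in which each of its 2 CACGTG sites is counted on either strand. Its distinct sites are thus fewer than 5. The LDHB window held 0 and a single GCGTG. TPI1 and CA9 had 1 ACGTG each. A match describes the letters and not the binding of a factor in these cells.

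The rest of the pathway, taken from 5 further lists, held no called gene either. The remaining glycolytic isozymes had 8 of 17 higher and 9 lower (median -0.0037). Those with the smallest unadjusted p were GAPDHS, the sperm form of glyceraldehyde phosphate dehydrogenase, at 0.37, PGAM4 at -0.30 and the liver glucose transporter SLC2A2 at 0.25. GAPDH and PKM, which encode the 2 glycolytic steps not covered by the 38 genes and are named here after their values were seen, differed by 0.095 (interval -0.30 to 0.49) and 0.042 (interval -0.44 to 0.52).

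The pentose phosphate branch, which makes NADPH and ribose, had 5 of 8 higher and 3 lower (median 0.064). TKT, the transketolase, read 10.65, 10.05 and 10.68 in the controls and 10.71, 10.99 and 11.06 in samples 4, 5 and 6, the 1 gene of 8 without overlap (12.5%, against 9.48% of all genes). Its difference was 0.46 (SE 0.22, interval -0.067 to 0.99, limma adjusted p = 0.942). PGLS differed by -0.85, with 0.20 within Cy3 and -1.47 within Cy5. Genes of pyruvate entry and gluconeogenesis split evenly, 9 higher and 9 lower of 18 (median -0.0022). PCK1, the cytosolic gluconeogenic kinase, read 10.69, 10.30 and 10.28 in the controls and 9.69, 9.61 and 9.50 in samples 4, 5 and 6, without overlap and with little spread in the latter. Its difference was -0.83 (SE 0.18, limma adjusted p = 0.942), at -0.88 within Cy3 and -0.71 within Cy5. MPC2, a subunit of the mitochondrial pyruvate carrier, read 11.18, 11.03 and 11.08 in the controls and 10.72, 10.72 and 10.99 in samples 4, 5 and 6. Its difference was -0.29 (SE 0.16, interval -0.66 to 0.086, limma adjusted p = 0.942). PCK1 and MPC2 were the 2 of 18 genes without overlap (11.1%). G6PC3 differed by 0.42.

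HIF subunits and regulators had 8 of 15 higher and 7 lower (median 0.017). EP300, the acetyltransferase that HIF1A recruits, read 8.85, 9.20 and 9.65 in the controls and 9.82, 9.69 and 10.14 in samples 4, 5 and 6, the 1 gene of 15 without overlap (6.67%). Its difference was 0.65 (SE 0.24, interval 0.068 to 1.23, limma adjusted p = 0.942). EGLN2 differed by 0.33 and HIF3A by -0.19. Of 25 other HIF target genes, 16 read higher and 9 lower (median 0.063). At an unadjusted limma p under 0.05 there was 1 of the 25 (4%), which read higher, against 3.76% of all genes. The groups did not overlap for 5 of the 25 (20%, 3 higher and 2 lower), against 9.48% of all genes. The genes with the smallest unadjusted p were among those 5. IGFBP3, a secreted binder of insulin-like growth factors, read 10.86, 10.77 and 10.67 in the controls and 11.64, 10.93 and 11.35 in samples 4, 5 and 6, a difference of 0.54 (SE 0.21, interval 0.039 to 1.04). ANGPTL4, an inhibitor of lipoprotein lipase, read 10.59, 10.55 and 10.59 and then 10.35, 10.25 and 10.07, a difference of -0.35 (SE 0.15, interval -0.71 to 0.0070). KDM3A, a histone demethylase, read 10.15, 10.56 and 10.18 and then 9.91, 9.61 and 10.08, a difference of -0.43 (SE 0.20, interval -0.90 to 0.041). All 3 had a limma adjusted p of 0.942.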

How the data were processed

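The authors deposited 1 table of values for 6 samples, taken here as log2 intensities normalised between arrays because they end just under the top of a log2 scanner scale and share their medians. Per the labels' protocols, RNA was copied into double-stranded cDNA, labelled, hybridised and scanned on a GenePix scanner. For background correction, normalisation method and build, the sources used here name nothing. A second deposited table held the same values in all 34558 rows. Column medians were 10.44 to 10.45. No detection call was used, no read depth exists for arrays, and 3 samples per group limit the precision.

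Rows of a deposited symbol were averaged on the log2 scale. The siRNA groups were tested by limma (version 3.58.1; R 4.3.3; two-sided moderated test from lmFit and eBayes) over all 19184 symbols with Benjamini-Hochberg adjustment, without filter or covariate. The method was tested on simulated data, but the outcome is not given here and no result rests on it. Single genes and isozyme pairs had exact permutation tests. Alternatives changed normalisation, filter, rows, names, variance model, weights, dye, threshold and samples. The members, lists, pairs and tests were chosen with earlier results of these data known. MTA2 and all 38 genes are named; from other lists, up to 3 genes with the smallest unadjusted p. One gene that this rule names is not reported here. Full statistics went to named genes whose groups did not overlap, whose unadjusted p was under 0.05, or whose rows disagreed in sign by over 0.5; further genes with values per sample were picked after their values were seen. Plots used matplotlib 3.10.9.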

Additional observations from a re-analysis of the deposited data

How the results depend on the processing

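The count of called genes among the 38 stayed 0 under the 18 alternatives that kept an adjusted p, including 0.10, and was 3 at an unadjusted p under 0.05, a threshold that takes no account of the number of genes (721 over the array). Over the array the count stayed 0 except for 4 with the Cy3 samples alone, a fit in which the lone sample 5 is assumed to vary like the 2 controls, and 0 to 3 with each sample left out (3 without control sample 2, 1 without sample 6). MTA2 read higher than control in every alternative run, from 0.13 to 0.33 with each sample left out. The median over the 38 was -0.051, and 0.0023 with the brightest row per symbol. The sign turned in at least 1 of the 15 or 16 alternatives that gave a value for 26 of the 38 genes; the 12 that kept it were SLC2A1, SLC2A3, PFKP, TPI1, ENO2, LDHB, NDRG1 and BNIP3 (lower) and PGAM1, ENO3, LDHC and ANKRD37 (higher). Some of these kept the sign only by a value near 0. TPI1 was -0.0041 with its brightest row. PFKP was -0.017 and SLC2A1 -0.036 with the Cy3 samples alone, and ENO3 was 0.010 with the Cy5 samples alone. For a gene with 1 row, taking the brightest row changes nothing. Genes of the set at an unadjusted limma p under 0.05 numbered 0 without sample 6 and 5 without sample 5. Without control sample 1 or 2 the number was 1. The share of all genes in the same fits is not set beside these counts, so they show nothing particular to the set. The cause was not tested. Leaving out 1 sample moved 34 of 38 differences by over 1.5 times, which for values near 0 needs only a small shift. No paired analysis was possible because the sample numbers run from 1 to 6 and are shared by no samples of the 2 groups.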
